A study of Arabidopsis thaliana with 6 samples.

Results

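The loci described here lie around the centromere of chromosome 1 of Arabidopsis thaliana. They are all measured loci whose names run from AT1G35800 to AT1G43799, 457 of the 29670 loci on the arrays, and they were chosen by name alone, without regard to their values. RNA was compared between epiRIL12 (3 arrays) and Col (3 arrays), in plants 14 days old that were untreated and grown in long days. The labels call the material both whole seedlings and rosette leaves. Col is the reference accession. The name epiRIL stands for epigenetic recombinant inbred line. Such lines are bred from Col and a plant that had lost DNA methylation, in this family through mutation of MET1, the enzyme that maintains CG methylation, and each line inherits segments of either parent. epiRIL12 is a single line, and the sources used here do not say which parent its chromosome 1 pericentromere came from. By its title, the series concerns the effect of lost DNA methylation on recombination.

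Pericentromeres of Arabidopsis are made of heterochromatin. Their DNA is dense in transposable elements and their remnants, which are kept silent by methylation of cytosines and of histone H3, and genes among them are sparse. Meiotic crossovers are rare there. When CG methylation is lost, some of these elements are transcribed, and the altered state can be inherited by lines that again have a working methylation enzyme.

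Of the 457 loci, 320 are annotated as pseudogenes and 19 as transcribed pseudogenes. This annotation has no class for transposable elements and places them with these 2, so the 339 loci together are called the pseudogene class below. A further 114 loci are protein-coding, 1 is a non-coding RNA and 3 have no match in the annotation. The pseudogene class thus makes up 74.2% of the region, against 5.81% of the rest of chromosome 1 and 14.0% of all loci. The annotation lists 543 loci in the same range of names, of which 89 were not analysed here. The first member, AT1G35820, and the locus before it, AT1G35790, had differences of -0.11 and -0.04 on the log2 scale (epiRIL12 minus Col, as throughout). At the other end the last member, TED6, and the next locus, FTM1, had 0.11 and 0.02. No change was called at either limit.

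Values are on a log2 scale, so that a step of 1 is 2-fold in array signal. The 6 array medians lay between 6.80 and 6.84. Pearson's r across all loci, which are not independent replicates, was 0.988 to 0.990 for pairs within a genotype and 0.979 to 0.982 for pairs of unlike genotype. Both arrays numbered 3 had a wider spread over all loci than the others (SD 2.40 in epiRIL12 and 2.37 in Col, against 2.32 on the other 4). All 4 leaf markers were above the median on every array, between 13.1 and 15.5 in epiRIL12 and between 13.1 and 15.5 in Col, and the 3 seed and 3 flower or meiosis markers were not. Of 3 root markers, 2 were above the median on every array. None of these 13 markers was called. Nothing in the labels says that replicates came from separate plantings, so p-values reflect only how these samples vary, which may be technical. In whole tissue, more cells with a transcript and more RNA per cell cannot be told apart.

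In epiRIL12, 11 of the 457 pericentromere loci rose and 0 fell (limma, Benjamini-Hochberg adjusted p under 0.05 over all 29670 loci). Over all loci 0.89% rose and 0.0843% fell. In the region 2.41% rose. All 11 were in the pseudogene class, 10 of them changed by at least 2-fold, and their median difference was 1.90 (log2), against 2.44 for the 264 rises of the whole table. Of the region's 339 pseudogene-class loci 3.24% rose, while 5.72% of the 4145 such loci in the whole table did. The region's share of rises is thus above that of all loci but not above that of its own annotation class. At an unadjusted p under 0.05 the region had 59 loci (12.9%, against 7.04% of all loci). Of these, 45 were pseudogene-class loci above 0 and 10 were pseudogene-class loci below 0. The share of the whole pseudogene class at this threshold was not computed. All 3 epiRIL12 values lay above all 3 Col values at 51 loci of the region (11.2%, against 5.19% of all loci) and below them at 24 (5.25%, against 6.89%). Among pseudogene-class loci the shares were 14.7% above and 4.42% below in the region, near the 14.8% and 5.6% of the whole class.

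**Figure D1:**
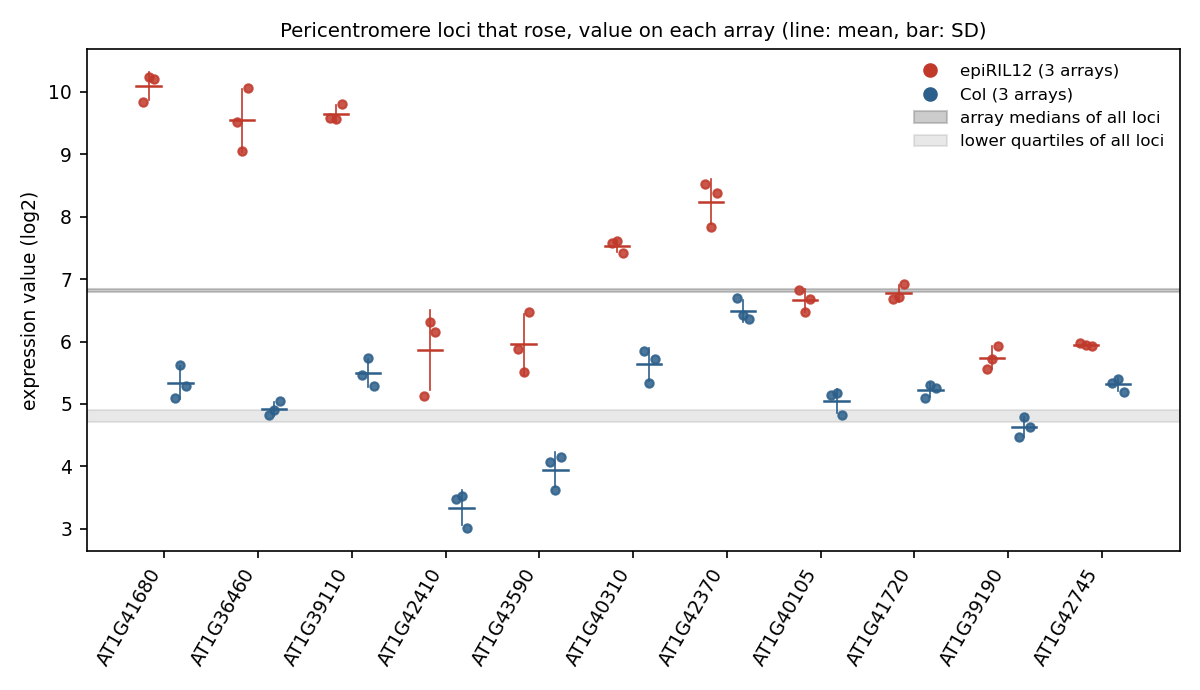
Expression value (log2) on each array of the 11 pericentromere loci that rose, with epiRIL12 left of Col for each locus; lines are means, bars SDs, and grey bands the array medians and lower quartiles of all loci. In every locus the 3 epiRIL12 points lie above the 3 Col points, and the Col points lie below the array medians.

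AT1G41680, AT1G36460 and AT1G39110 stood apart from the other 8 in size. AT1G41680, a pseudogene, had values of 9.84, 10.24 and 10.20 in epiRIL12, against 5.10, 5.62 and 5.30 in Col. That is a 27.0-fold higher signal in epiRIL12 (log2 4.75, SE 0.17, limma adjusted p = 5.1e-05). AT1G36460, also a pseudogene, had 9.52, 9.05 and 10.06 in epiRIL12, against 4.83, 4.90 and 5.05 in Col. Its 3 epiRIL12 values were spread more widely than those of AT1G41680 (SD 0.50 and 0.22), but its groups were as far apart (log2 4.62, SE 0.24, limma adjusted p = 0.00020). AT1G39110 had 9.59, 9.56 and 9.81 in epiRIL12, against 5.47, 5.73 and 5.28 in Col (log2 4.16, SE 0.14, limma adjusted p = 3.8e-05). In Col all 3 loci lay between 4.83 and 5.73, below the array medians and above or within the range of the lower quartiles (4.71 to 4.90), and in epiRIL12 all 3 lay well above the medians.

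The next 6 loci rose by 2.93-fold to 5.77-fold. AT1G42410 had 5.13, 6.32 and 6.15 in epiRIL12, against 3.47, 3.52 and 3.02 in Col (log2 2.53, SE 0.33, limma adjusted p = 0.0190). AT1G43590 had 5.88, 5.51 and 6.47 in epiRIL12, against 4.08, 3.62 and 4.15 in Col (log2 2.00, SE 0.27, limma adjusted p = 0.0222). Both had Col values below the lower quartile of every array, and both had epiRIL12 values that stayed below the median. AT1G40310 had 7.57, 7.61 and 7.42 in epiRIL12, against 5.84, 5.34 and 5.72 in Col (log2 1.90, SE 0.15, limma adjusted p = 0.00154). AT1G42370 had the highest Col level of the 11, with 8.52, 7.83 and 8.38 in epiRIL12, against 6.70, 6.42 and 6.36 in Col (log2 1.75, SE 0.20, limma adjusted p = 0.0104). These 2 loci crossed the array median in epiRIL12. AT1G40105 had 6.82, 6.47 and 6.69 in epiRIL12, against 5.14, 5.17 and 4.83 in Col (log2 1.61, SE 0.14). AT1G41720 had 6.68, 6.71 and 6.93 in epiRIL12, against 5.09, 5.31 and 5.26 in Col (log2 1.55, SE 0.11). Both ended near the array median (limma adjusted p = 0.00266 and 0.00106).

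The smallest rises were at AT1G39190 and AT1G42745. AT1G39190 had 5.56, 5.72 and 5.93 in epiRIL12, against 4.48, 4.80 and 4.62 in Col (log2 1.10, SE 0.13, limma adjusted p = 0.0148). AT1G42745 had 5.97, 5.95 and 5.93 in epiRIL12, against 5.34, 5.41 and 5.20 in Col (log2 0.64, SE 0.09, limma adjusted p = 0.0336). Groups did not overlap at either locus. All 11 are known by locus name only, and none has a symbol in the annotation used here.

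The precision of the 11 calls was uneven. AT1G41680, AT1G36460, AT1G39110 and AT1G41720 were called under every alternative that kept them in the test, including with any single array left out. AT1G40310 and AT1G40105 were called with any single array left out. The number of rises was 7 without Col replicate 1, 7 without Col replicate 2, 7 without Col replicate 3 and 7 without epiRIL12 replicate 3, and it was 10 and 9 without epiRIL12 replicates 1 and 2. Call losses in these settings fell on AT1G42745 (lost without any one of the 6 arrays), AT1G42410 (lost without 5 of them), AT1G39190 and AT1G43590 (lost without 4 each) and AT1G42370 (lost without 3). Without both arrays of wider spread 4 rises passed. In the authors' deposited table all 11 have a positive log2 difference, between 0.60 and 4.58, with unadjusted p-values of 8.6e-06 to 0.00808, and 4 of them pass after adjustment over all loci. Of the 20 loci next to a called locus that were not themselves called, 12 had differences above 0. In the whole pseudogene class 51.6% did, and the 20 also include protein-coding loci. Differences of the 20 ran from -0.23 to 1.51, with the highest at AT1G41723.

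Further pseudogene-class loci were higher in epiRIL12 without passing the test. The whole class of 4145 loci had 294 with differences of at least 1 (2-fold) and 12 with differences of -1 or lower. Of the region's 339 such loci, 16 had differences of at least 1, 10 of them called, and 0 had differences of -1 or lower. The other 6 were chosen once their values had been seen. They were AT1G38194 (1.86), AT1G41726 (1.69), AT1G37160 (1.61), AT1G37801 (1.60), AT1G41723 (1.51) and AT1G42727 (1.10), with limma adjusted p between 0.0594 and 0.295. At each of the 6, all epiRIL12 values lay above all Col values. Choosing loci by the size of their difference favours this arrangement, so it adds no support. Their standard errors were 0.26 to 0.40, against a median of 0.13 over all loci. AT1G41726 came closest to a call, with 7.59, 8.26 and 8.07 in epiRIL12, against 6.11, 5.91 and 6.83 in Col. Without Col replicate 3, where its value was 6.83, it was called.

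AT1G41720, AT1G41723 and AT1G41726 follow each other in locus order and differed by about the same amount, 1.55, 1.51 and 1.69. AT1G41723 had 7.15, 6.76 and 8.04 in epiRIL12, against 5.60, 6.14 and 5.68 in Col. AT1G41710, the locus before this run, had 4.54, 4.78 and 4.94 in epiRIL12, against 4.92, 4.85 and 4.43 in Col, with no called change (0.02, SE 0.17). The called loci AT1G39110 and AT1G39190 are also neighbours, with differences of 4.16 and 1.10, while AT1G39030 and AT1G39270 on their outer sides had -0.07 and 0.24. Apart from these 3 called loci, the neighbours of the other 8 lay between -0.23 and 0.35. No called locus overlaps another locus in the annotation. Probe sequences were not used here, so cross-hybridisation between copies of one repeat family was not tested for any of these loci, and the double-stranded target does not tell a locus from an antisense transcript.

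**Figure D2:**
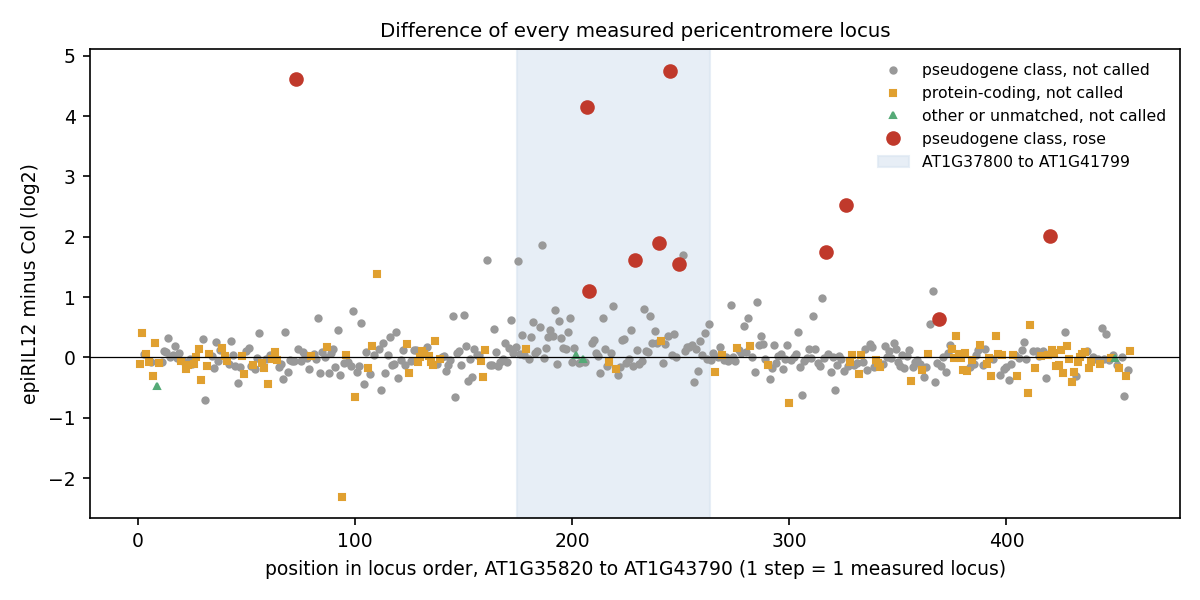
Difference between epiRIL12 and Col (log2, epiRIL12 minus Col) of each of the 457 measured loci in locus order, 1 step per locus, with the 11 loci that rose in red and the stretch AT1G37800 to AT1G41799 shaded. The shaded stretch holds 6 of the 11 red points among 89 loci, and most grey points in it lie above 0.

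The middle of the region, AT1G37800 to AT1G41799, had a higher share of loci above 0 than its flanks. This split was chosen after the values were seen, and it was given no test. The middle held 83 pseudogene-class loci and 4 protein-coding loci, and the flanks held 256 and 110. Of the pseudogene-class loci, 6 rose in the middle (7.23%) and 5 in the flanks (1.95%), around the 5.72% of the whole class. All epiRIL12 values lay above all Col values at 20 of 83 loci in the middle (24.1%) and at 30 of 256 in the flanks (11.7%), where the whole class had 14.8%. The opposite arrangement was found at 1 locus in the middle and 14 in the flanks, where the whole class had 5.6%. Differences were above 0 at 63 of 83 loci in the middle (75.9%), at 126 of 256 in the flanks (49.2%) and at 51.6% of the whole class.

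The shift in the middle was small. The median difference of its pseudogene-class loci was 0.17, and 0.15 over those that were not called, against -0.0016 over the flanks. The median level of the 83 loci was 5.03, 4.80 and 4.94 on the epiRIL12 arrays, against 4.72, 4.79 and 4.64 on the Col arrays. The lowest epiRIL12 array exceeded the highest Col array by 0.0068. In the flanks the medians were 4.23, 4.13 and 4.04 in epiRIL12, against 4.15, 4.20 and 4.10 in Col, and overlapped. The median difference in the middle was 0.20 after quantile normalization, 0.15 after median centring and 0.15 without both arrays numbered 3. These settings reuse the arrays from which the split was chosen, so they are no independent check of it. Levels also differed between the stretches within one genotype, with a median of 4.72 in the middle and 4.16 in the flanks in Col. The part of this difference in level in the result was not tested.

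Most of the pseudogene class stayed low in both genotypes. The median level of the 339 loci was 4.34, 4.30 and 4.18 on the epiRIL12 arrays and 4.30, 4.31 and 4.19 on the Col arrays. The upper end moved instead. The 90th percentile was 6.08, 6.10 and 5.99 in epiRIL12, against 5.66, 5.49 and 5.52 in Col, and the highest locus reached 9.84, 10.24 and 10.20 in epiRIL12, against 7.63, 8.02 and 7.72 in Col. The number of pseudogene-class loci above the median of their array was 15 on each epiRIL12 array, against 4, 5 and 4 on the Col arrays. Among these, called loci made up 5, 5 and 6 on the epiRIL12 arrays and 0 on each Col array. These measures were not computed for the whole class. The 11 loci that rose had a median Col level of 5.22, and the 328 that were not called had 4.24. No background level is given for these arrays, so a fold from such a level compares array signals, and the ratio of RNA may differ.

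**Figure D3:**
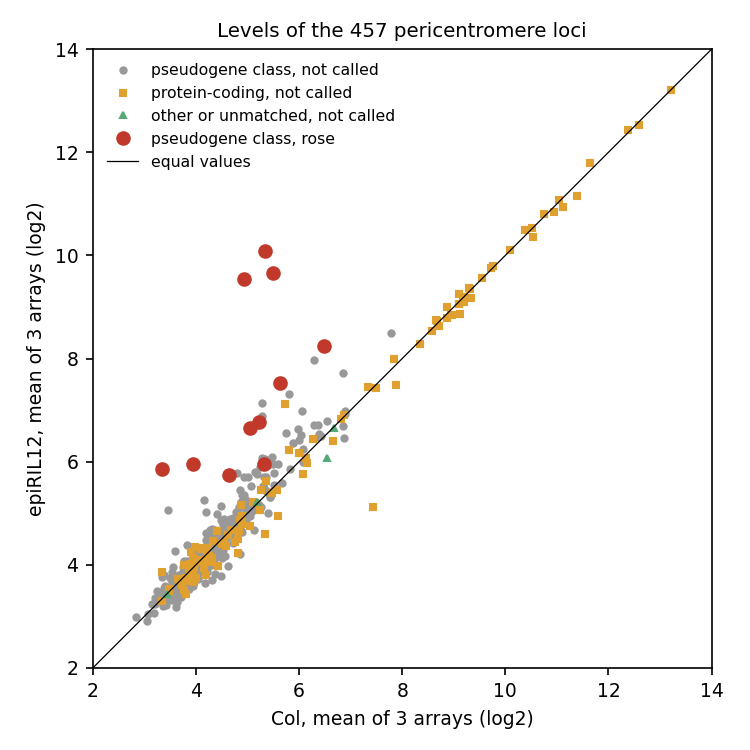
Mean level (log2, 3 arrays each) of the 457 loci in epiRIL12 (vertical axis) against Col (horizontal axis), with the 11 loci that rose in red and a line of equal values. Most protein-coding loci lie near the line, up to 13.2. AT1G36622 lies well below the line and AT1G36756 well above it, and neither was called. The red points lie above the line at Col levels of 3.34 to 6.49.

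Protein-coding genes of the region showed no called change. Of the 114, 0 rose and 0 fell, where 0.107% of all protein-coding loci rose and 0.0715% fell, so 0 of 114 is near that background. At an unadjusted p under 0.05 there were 4 of the 114, all of them lower in epiRIL12, where 7.04% of all loci passed in either direction. The share of all protein-coding loci at this threshold was not computed. All epiRIL12 values lay above all Col values at 1 locus (AT1G41920, where 3.67% of all protein-coding loci did so) and below them at 9 (7.89%, against 7.11%). The median difference was -0.04, against -0.03 over all protein-coding loci, and 108 of the 114 differed by less than 0.5 in either direction. AT1G36756, picked after its values were seen, had the highest difference of the group (1.38, SE 0.66, limma adjusted p = 0.787). Its epiRIL12 and Col values overlapped. The group had a lower level than genes elsewhere, with a median of 4.94 in epiRIL12 and 5.08 in Col, against 7.37 and 7.40 over all protein-coding loci. On the epiRIL12 arrays 41, 40 and 40 of the 114 were above the array median, and on the Col arrays 43, 40 and 40. The 30 members that carry a gene symbol are all protein-coding, and their differences ran from -0.44 to 0.36.

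The region held 4 lists of such genes, 28 in all and every one measured, which are described whatever their values. None of the 28 was called or had an unadjusted p under 0.05. Their median difference was 0.02, against -0.02 over all loci, with 15 above and 13 below 0. Among 9 genes of carbon and nitrogen metabolism 3 were above 0 and 6 below. GAPB, a chloroplast glyceraldehyde-3-phosphate dehydrogenase subunit of the Calvin cycle, was the highest locus of the region, with 13.14, 13.28 and 13.21 in epiRIL12, against 13.25, 13.15 and 13.25 in Col. NIA2, a nitrate reductase, had 12.51, 12.48 and 12.60 in epiRIL12, against 12.62, 12.46 and 12.70 in Col. Their values overlapped, and the differences were -0.005 (SE 0.09) and -0.06 (SE 0.10).

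FBP, the cytosolic fructose-1,6-bisphosphatase of sucrose synthesis, had 11.16, 11.14 and 11.17 in epiRIL12, against 11.53, 11.22 and 11.43 in Col. The groups did not overlap, but the difference of -0.23 (SE 0.11) did not pass (limma adjusted p = 0.758). The acetyl-CoA carboxylase genes ACC1 and ACC2, neighbouring paralogs whose probes could share signal, had differences of 0.03 (SE 0.09) and -0.06 (SE 0.10). SHM7, a serine hydroxymethyltransferase, had -0.03, EMB1075, a serine decarboxylase, 0.10, and HCS2, a biotin-protein ligase, 0.12.

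The 5 genes of the ribosome and translation list were spread over the whole range of levels. RP1, a ribosomal protein L3 gene, averaged 12.4 ± 0.12 in epiRIL12 and 12.4 ± 0.10 in Col (SD, n = 3 each), with a difference of 0.06 (SE 0.10). AT1G36240 was the least certain value of the lists, with 2.80, 5.52 and 2.89 in epiRIL12, against 5.04, 3.20 and 3.78 in Col. Its difference of -0.27 had an SE of 0.82, and 1 array of each genotype stood apart from the other two. All 5 transcription factor genes had differences above 0, from 0.01 to 0.36, with none called. BZIP60, which acts in the unfolded protein response, had 0.06 (SE 0.11), and VIP1, a bZIP factor, 0.06 (SE 0.14). RAP2.6, a stress-related ERF factor with the largest value of the list, had 4.01, 4.71 and 4.30 in epiRIL12, against 3.71, 4.54 and 3.70 in Col, and the groups overlapped.

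Among 9 other genes with a known product 4 were above 0 and 5 below. PMI1, needed for chloroplast movement, had a difference of -0.10 (SE 0.10), UGT80B1, a sterol glucosyltransferase, -0.15 (SE 0.09), and PTB3, a polypyrimidine tract-binding splicing regulator, 0.05 (SE 0.10). UMAMIT22, of a family of amino acid transporters, had 6.36, 6.39 and 6.45 in epiRIL12, against 6.83, 6.68 and 6.45 in Col (-0.25, SE 0.12). The highest epiRIL12 value and the lowest Col value were almost equal, so the groups just overlapped.

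**Figure D4:**
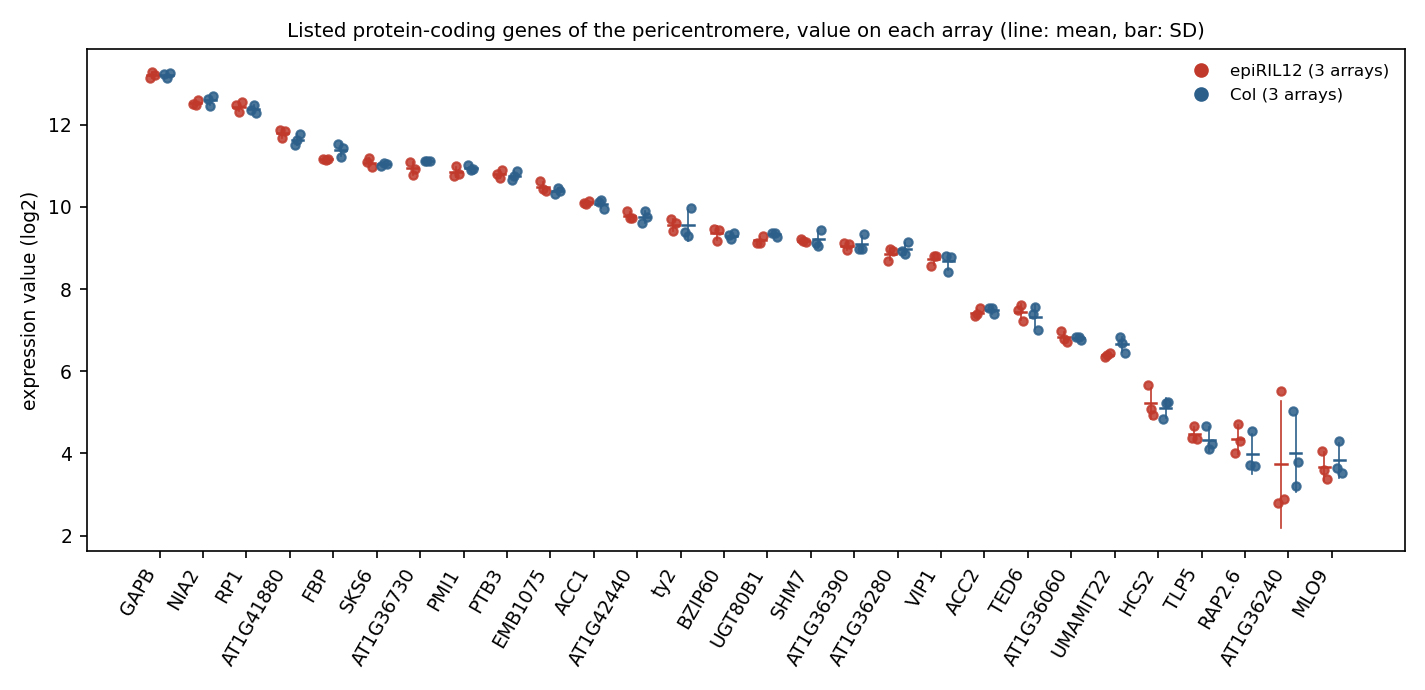
Expression value (log2) on each array of the 28 listed protein-coding genes, in order of level, with epiRIL12 left of Col for each gene; lines are means and bars SDs. The values of both genotypes lie close together from GAPB at 13.2 down to the low genes, where AT1G36240 has the widest bars.

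AT1G36622 was the lowest difference of the region. This protein-coding locus had 4.59, 4.76 and 6.03 in epiRIL12, against 6.96, 7.21 and 8.13 in Col. The groups did not overlap, and the array numbered 3 was the highest of each genotype. The difference was -2.30 (SE 0.46), but it did not pass over all loci (limma adjusted p = 0.137). It passed without epiRIL12 replicate 3 (-2.76, limma adjusted p = 0.0458) and without both arrays numbered 3 (-2.41, limma adjusted p = 0.0123). With the replicate block it also passed (-2.30, limma adjusted p = 0.0041). Over all settings tried its adjusted p ran from 0.0041 to 0.826, where 0.826 comes from the authors' deposited p-values. The next lowest members were AT1G42190 (-0.75), AT1G36090 (-0.71), AT1G37045 (-0.66), AT1G36675 (-0.65) and AT1G43777 (-0.65). Of these 5, AT1G36675 and AT1G43777 had groups that did not overlap. AT1G36675 had 4.72, 5.13 and 4.98 in epiRIL12, against 5.31, 5.76 and 5.72 in Col (limma adjusted p = 0.299).

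The region was set beside the rest of chromosome 1 and beside pseudogene-rich stretches of chromosomes 3 and 5, defined as loci whose surrounding 101 loci are at least 50% pseudogene class. None of these differences was tested. Other chromosomes were not part of this comparison, and the whole class had 237 rises among 4145 loci (5.72%). Of the pseudogene-class loci, 3.24% rose in the chromosome 1 pericentromere (11 of 339), 2.23% in the rest of chromosome 1 (9 of 404), 3.98% in the chromosome 3 stretches (28 of 703) and 5.55% in the chromosome 5 stretches (30 of 541). The region's rises ran from 0.64 to 4.75 with a median of 1.90, while the 9 rises elsewhere on chromosome 1 ran from 1.97 to 5.22 with a median of 3.88. Of these 9, AT1G34967, AT1G35280 and AT1G43840 lay close outside the region, within the wider limits AT1G34000 to AT1G45999. In the chromosome 3 and 5 stretches the medians were 1.43 and 2.34. All epiRIL12 values lay above all Col values at 14.7% of the region's pseudogene-class loci, 6.68% of those on the rest of the chromosome, 10.7% in the chromosome 3 stretches and 17.9% in the chromosome 5 stretches. No protein-coding locus rose in any of these 4 sets, where 0.107% of all protein-coding loci rose and 0.0715% fell. Falls among protein-coding loci were 4 of 6454 in the rest of chromosome 1 and 1 of 180 in the chromosome 3 stretches. The region and the chromosome 5 stretches had 0.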

How the data were processed

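Total RNA was depleted of ribosomal RNA, amplified with random primers and hybridised as biotin-labelled double-stranded cDNA to Affymetrix arrays, per the labels' protocols. The authors deposited 1 log2 value per locus and array. Background correction, normalization, summarization, tools and genome build were not given in the sources used here. A second table that the authors deposited gives a log2 difference and an unadjusted p-value per locus, by a test that neither file names. The value table numbers its rows, so locus names were joined from the second table by row order. Over the 457 loci the difference of group means and the authors' difference had r = 0.978 in place and 0.0811 when shifted by 1 row, and their sign is epiRIL12 minus Col.

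Tests used limma 3.58.1 (lmFit and eBayes under R 4.3.3, two-sided, genotype only, no filter, no pseudocount), with Benjamini-Hochberg adjustment over 29670 loci; errors of differences are its moderated standard errors. On simulated data of 29670 loci limma recovered 68% of rises of 1, 96% of 2 and 100% of 4 (log2, 50 loci each), with 5 false calls. It recovered 62% of falls of 1. The noise was independent and normal with the spread of each locus, and the changed loci were drawn from the whole table. Recovery within the region was not measured. Symbols and classes came from the RefSeq table of assembly TAIR10.1, which matched 454 of the 457 loci; it also served to see which neighbours overlap, and none of its coordinates are printed. Named loci were all called members, the 6 highest and 6 lowest differences, neighbours of called loci, both sides of each limit, the 8 highest levels and 4 gene lists; other loci were chosen after their values were seen, as stated beside them. The region, lists and rules were chosen with earlier results of these data known. Same-numbered arrays were not treated as pairs. Alternatives were a replicate block, other normalizations, filters, thresholds, limits of the region, the authors' p-values and left-out arrays. The number of arrays limits the precision. Python 3.11.15 drew summaries and plots.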

Additional observations from a re-analysis of the deposited data

How the results depend on the processing

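Under the alternatives tried, 0 protein-coding loci of the region rose, and no called locus changed sign. The count of rises, 11 in the pseudogene class and 11 in all, stayed within 1.5 times under quantile normalization (11), median centring (11), trended robust eBayes (11), the 25% filter on low values (12), an adjusted p under 0.10 (13), and the narrower (9) and wider (14) limits of the region. It was 6 at an adjusted p under 0.01, 6 with the authors' deposited p-values after adjustment, 5 with the lower 50% of loci left out, which keeps 49 of the 457, and 4 without both arrays numbered 3, a setting chosen after seeing the data. With one array left out at a time it ran from 7 to 10. The count of falls was 0, but 1 with the replicate block (AT1G36622, limma adjusted p = 0.0041, its lowest) and 1 without both arrays numbered 3 (AT1G36622), 1 with the authors' p-values (AT1G42703), 1 in the wider region (AT1G44075), and 0 to 1 with one array left out. Apart from fewer loci or arrays in a setting, the cause was not tested. The replicate block gave 8 rises. Deviations of same-numbered arrays had r = -0.04, -0.07 and 0.13, and those of unlike-numbered arrays ran from -0.09 to 0.12. The arrays numbered 3 gave the highest r, and whether they share an effect was not tested. Loci near the lower quartiles limit what can be seen, since no background level is given.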
